A study of Homo sapiens with 8 samples.

Results

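The nuclear genes of the respiratory chain subunits encode the protein parts of complexes I to IV that are not made inside the mitochondrion. They were chosen by name, as protein-coding genes on nuclear chromosomes beginning NDUFA, NDUFB, NDUFC, NDUFS, NDUFV or UQCR, or COX4 to COX8, together with SDHA, SDHB, SDHC and SDHD, without the NDUFAF assembly factors. There were 68 such genes among 19648 protein-coding genes counted, with 38 in complex I, 4 in complex II, 9 in complex III and 17 in complex IV. Lysine 9 acetylation on histone H3 (H3K9ac) and lysine 16 acetylation on histone H4 (H4K16ac) had been mapped by chromatin immunoprecipitation and sequencing in KGN, an established line from a human ovarian granulosa cell tumour. One set of KGN cells had received 1 mM butyrate for 6 h and the other had received none. Butyrate is a fermentation product of gut bacteria and an inhibitor of histone deacetylases. There was 1 library for each mark in each condition, so every difference below is one between single libraries of a single cell line, with no test and no error between cultures.

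Complex I oxidises NADH and passes the electrons to ubiquinone, complex II does the same with succinate, complex III hands electrons from ubiquinol to cytochrome c, and complex IV passes them to oxygen. Those core and accessory subunits that are not made inside the mitochondrion come from nuclear genes scattered over many chromosomes. The factors NRF1, GABP (an ETS-family factor), YY1 and SP1 are known regulators of many of these genes. Granulosa cells use mitochondria both for ATP and for the first step of steroid synthesis. H3K9ac is found chiefly around the starts of active genes, and H4K16ac is an acetyl mark of open chromatin. H4K16ac here means the libraries so labelled, since the peak names in their files carry the letters k12.

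A gene was called marked when a peak of the authors' list, after peaks sharing bases were merged, reached within 1 kb of the gene's start as given by the authors or by RefSeq. Kept means marked in both libraries, gained means marked with butyrate alone, and lost means marked in control alone. The implied depth was 29.4 M reads (M, 1000000 reads) with butyrate and 24.3 M in control for H3K9ac, and 23.8 M with butyrate and 17.4 M in control for H4K16ac. The H3K9ac lists were limited by q at 0.05 and held 79356 merged peaks with butyrate and 22215 in control. The H4K16ac lists were limited by p at about 0.005 and held 33752 with butyrate and 73586 in control, of which 1.13% with butyrate and 39.6% in control had a q of at most 0.05. The IgG lists held 2 peaks with butyrate and 5 in control, and none lay at a respiratory chain gene. As a check of the cell line, H3K9ac marked 4 of 5 granulosa markers with butyrate and 3 of 5 in control, and none of the 7 markers of blood, endothelium and epithelium in either. H4K16ac marked 1 of the 5 granulosa markers with butyrate and 3 in control, and of the other 7 only the endothelial genes CDH5 and PECAM1, with butyrate alone. Positions below are GRCh38.

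The promoters of 5 of these genes show the sequences at issue. The first 3 belong to the genes that had the strongest H4K16ac promoter peaks lost with butyrate, among those with an entry in the RefSeq promoter table (GRCh38.p14). The last 2 belong to tissue-restricted complex IV isoforms that had no H3K9ac in either library. Each stretch runs from 160 bases before the start to 20 after it, and capitals mark matches on either strand to NRF1 (GCGCANGCG), ETS (CCGGAAG), YY1 (AAGATGGCG) or SP1 (GGGCGG).
NDUFA6, chr22:42090753-42090932, minus strand: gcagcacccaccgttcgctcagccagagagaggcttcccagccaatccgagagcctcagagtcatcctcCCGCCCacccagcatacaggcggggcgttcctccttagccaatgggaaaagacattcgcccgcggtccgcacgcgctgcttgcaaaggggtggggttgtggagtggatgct
NDUFA11, chr19:5903771-5903950, minus strand: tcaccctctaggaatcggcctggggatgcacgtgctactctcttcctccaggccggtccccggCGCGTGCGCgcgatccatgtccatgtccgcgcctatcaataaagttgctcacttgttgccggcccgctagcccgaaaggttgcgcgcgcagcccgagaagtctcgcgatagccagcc
UQCRC1, chr3:48609627-48609806, minus strand: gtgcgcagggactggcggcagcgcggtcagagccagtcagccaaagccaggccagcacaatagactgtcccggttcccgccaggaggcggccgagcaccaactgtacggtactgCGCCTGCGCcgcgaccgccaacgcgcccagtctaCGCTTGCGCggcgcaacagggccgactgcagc
COX6A2, chr16:31428341-31428520, minus strand: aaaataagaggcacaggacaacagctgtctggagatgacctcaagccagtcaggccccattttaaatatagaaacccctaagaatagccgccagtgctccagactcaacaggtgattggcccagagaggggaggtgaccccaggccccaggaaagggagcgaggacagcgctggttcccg
COX7B2, chr4:46909226-46909405, minus strand: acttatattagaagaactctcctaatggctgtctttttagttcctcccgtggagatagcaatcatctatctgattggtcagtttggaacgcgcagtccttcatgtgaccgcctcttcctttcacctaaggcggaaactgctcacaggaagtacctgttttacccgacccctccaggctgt

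NDUFA6 and NDUFA11 encode accessory subunits of complex I, and UQCRC1 encodes a core subunit of complex III. NDUFA6 showed 1 SP1 match in this stretch, NDUFA11 1 NRF1 match and UQCRC1 2 NRF1 matches, all on the strand opposite to the gene. COX6A2, the heart and skeletal muscle form of subunit VIa, and COX7B2, a form known from testis, showed none of the 4 motifs there. Over whole promoters, from 250 bases before to 50 after the start, 57 of the 68 genes could be searched. The NRF1 letters were found in 17 of these (29.8%), against 11% of all 15811 promoters of that length. ETS letters were found in 15 (26.3%, against 14.1%), YY1 letters in 7 (12.3%, against 2.69%) and SP1 letters in 33 (57.9%, against 58.3%). No motif contains another, and 47 of the 57 promoters held at least 1 of them. SDHA, the flavoprotein subunit of complex II, held 4 NRF1 matches, beginning at bases -166, -117, -68 and -19 from the RefSeq start. Of the 5 searchable promoters without control H3K9ac, 1 held NRF1 letters, 2 held SP1 letters and none held ETS or YY1 letters. The NRF1 letters were those of COX8C, at bases -14 to -6. COX8C also had no H3K9ac in either library, and its promoter is not printed above. A match is a description of the letters only.

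H3K9ac marked 63 of the 68 genes with butyrate (92.6%, exact 95% interval 83.7 to 97.6) and 60 in control (88.2%, 78.1 to 94.8). The intervals cover counting of genes only. Among all genes 63.7% were marked with butyrate and 54.6% in control. In complex I the mark was on 38 of 38 genes in both libraries, and in complex II on 4 of 4 in both. Complex III had 9 of 9 with butyrate and 8 of 9 in control, and complex IV 12 of 17 with butyrate and 10 of 17 in control. So 60 genes kept the mark, 3 gained it and 0 lost it. Over all genes 9.24% gained an H3K9ac promoter peak and 0.178% lost one, which are 20.4% of the genes unmarked in control and 0.326% of those marked. Some genes, in complex I among others, were marked at the authors' start only. With the RefSeq start alone, H3K9ac marked 60 of the 68 genes with butyrate and 57 in control. The order of the libraries turned under other limits. With equal numbers of top peaks in both lists, 59 of the 68 genes were marked with butyrate and 60 in control, with 0 gained and 1 lost. When only peaks with a fold of 5 or more were used, 50 were marked with butyrate and 55 in control, with 3 gained and 8 lost. Those 3 were not the genes gained without that limit, whose folds were 3.75 (COX6B2), 3.33 (UQCRHL) and 2.81 (COX7A1).

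**Figure D1:**
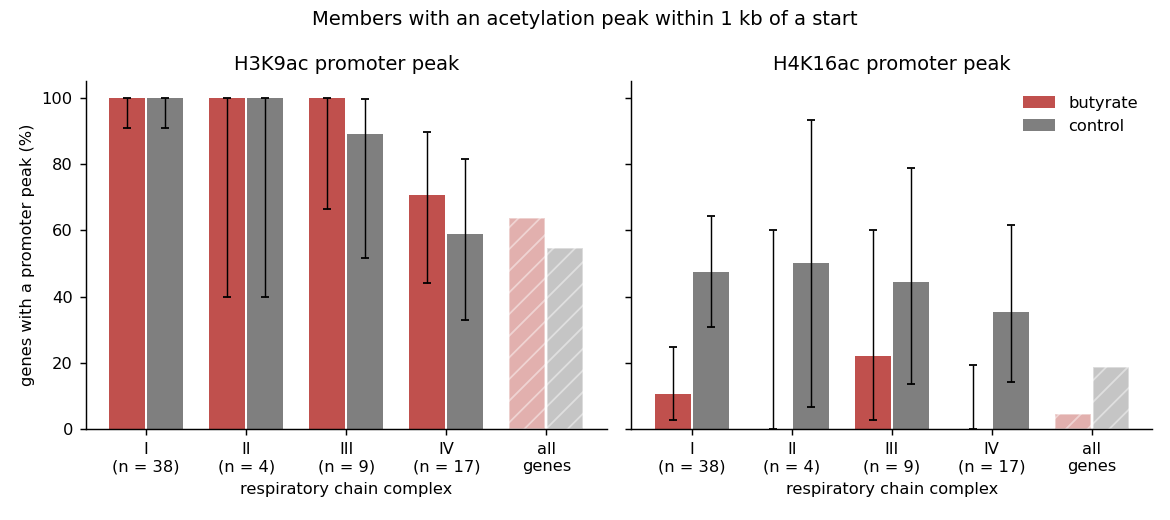
Share of respiratory chain genes with a promoter peak (%, vertical axis) by complex, with all genes hatched, for H3K9ac and H4K16ac. Bars are single libraries, butyrate red and control grey, and error bars are exact 95% intervals for counting genes. H3K9ac was at 100% of complex I in both libraries, while H4K16ac stood at 10.5% with butyrate and 47.4% in control there.

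All 8 genes without H3K9ac in control were isoforms or relatives of a marked gene, 7 of complex IV and 1 of complex III. The 3 gained genes were COX6B2, COX7A1 and UQCRHL. COX6B2, the testis form of subunit VIb, had a butyrate peak of 1106 bp across its start on chromosome 19 (55353760 to 55354865, fold 3.75, −log10 q 3.77), and the nearest control peak lay 14054 bp away. UQCRHL, a copy of the complex III hinge gene UQCRH, had a 322 bp butyrate peak (−log10 q 2.90), against a nearest control peak at 7598 bp. The butyrate peak began 935 bp downstream of the RefSeq start, beyond the end of the 276 bp gene. COX7A1, the heart and muscle form of subunit VIIa, had a 251 bp butyrate peak (−log10 q 1.83) 923 bp from the authors' start and over 1 kb from the RefSeq start, against a nearest control peak at 11225 bp. These 3 were the weakest butyrate H3K9ac promoter peaks of the whole set. The lowest −log10 p in the list was 2.97 with butyrate and 3.46 in control, so a peak could enter the butyrate list at a weaker p. The gained peak of COX7A1 had a −log10 p of 3.64, that of UQCRHL 4.94 and that of COX6B2 5.94. The part of the list limits and of the depths in these gains was not tested.

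The 5 genes without H3K9ac in either library were COX4I2, COX6A2, COX7B2, COX8C and COX7A2L. COX4I2, the lung and hypoxia-associated form of subunit IV, had its nearest H3K9ac peak at 3406 bp with butyrate and 29354 bp in control. For COX6A2 the distances were 8805 bp with butyrate and 14274 bp in control, and for COX8C, a testis form of subunit VIII, 13548 bp with butyrate and 14137 bp in control. COX7B2 lay 554212 bp from a butyrate peak and 553796 bp from a control peak. COX7A2L, a supercomplex assembly factor and not a tissue isoform, was unmarked at the outermost start alone. At another RefSeq start of COX7A2L (chromosome 2, 42361217) an H3K9ac peak of 1937 bp with butyrate (−log10 q 11.4) and of 2239 bp in control (14.1) was listed. Counting every RefSeq start in the promoter table, a setting added after this gene was seen, COX7A2L is a marked gene in both libraries.

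The widely used partner of each restricted isoform was marked in both libraries. COX4I1 had 3578 bp of promoter peaks with butyrate and 3183 bp in control. COX6A1 had 2266 bp with butyrate and 890 bp in control, and COX7A2 had 1954 bp with butyrate and 1071 bp in control. The COX7A2 peaks lay at the authors' start only, 6489 bp from the RefSeq start. COX8A had 3129 bp with butyrate and 1980 bp in control, and COX7B had 1369 bp with butyrate and 899 bp in control. For UQCRH the widths were 4713 bp with butyrate and 4584 bp in control. COX6B1 was the partner with less peak width in the treated cells, 866 bp with butyrate and 1101 bp in control. In none of the 7 pairs was the restricted isoform marked in control. The 2 genes formerly named NDUFA4 and NDUFA4L2 fall outside the name rule under their present symbols. COXFA4 (NDUFA4) kept H3K9ac, with 1859 bp with butyrate against 2123 bp in control, and COXFA4L2 (NDUFA4L2), its hypoxia-associated relative, gained an 811 bp peak (−log10 q 2.85).

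**Figure D2:**
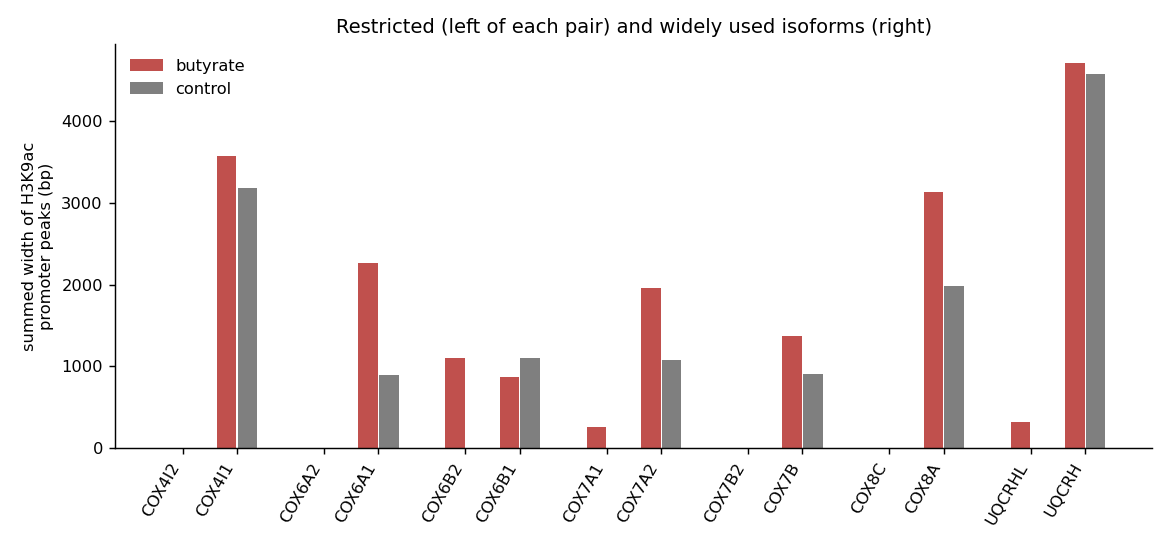
Summed width of H3K9ac promoter peaks (bp, vertical axis) for 7 pairs of a restricted isoform and its widely used partner, butyrate red and control grey, 1 library each. Restricted isoforms have no control bar, and 3 of them have a butyrate bar, of 1106, 251 and 322 bp.

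At the 60 genes that kept H3K9ac, the summed width of promoter peaks was somewhat larger with butyrate and the strongest summit lower. The summed width of promoter peaks had a median of 2255.5 bp with butyrate and 1729 bp in control. The median of the 60 width ratios, butyrate over control, was 1.11, with 44 genes wider and 16 narrower, where the 10691 kept genes of the genome had a median ratio of 1.38 and 80.8% wider. By complex the median width ratio was 1.11 in complex I, 1.19 in complex II, 0.880 in complex III and 1.33 in complex IV. Among the 51 kept genes whose known starts lie within 1 kb of each other, the peaks reached a median of 740 bp upstream with butyrate and 535 bp in control. Downstream they reached 1285 bp with butyrate and 1167 bp in control. Butyrate peaks reached farther upstream at 66.7% of these genes and farther downstream at 62.7%. The shares were 75.5% and 71.9% of the 8684 kept genes of the genome chosen in the same way. The promoter held 2 or more separate peaks at 36 of the 60 genes with butyrate (60%) and at 23 in control (38.3%), where the shares of all kept genes were 49.6% with butyrate and 41.4% in control.

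The largest width ratios were those of NDUFB8, with 2653 bp with butyrate and 887 bp in control, of COX6A1, given above, and of NDUFB7, with 2950 bp with butyrate and 1231 bp in control. The smallest were those of NDUFA12, with 486 bp with butyrate and 1141 bp in control, of NDUFB6, with 881 bp with butyrate and 1899 bp in control, and of NDUFA9, with 1192 bp with butyrate and 1780 bp in control. All but COX6A1 encode accessory subunits of complex I, so wide and narrow changes were found within one complex.

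**Figure D3:**
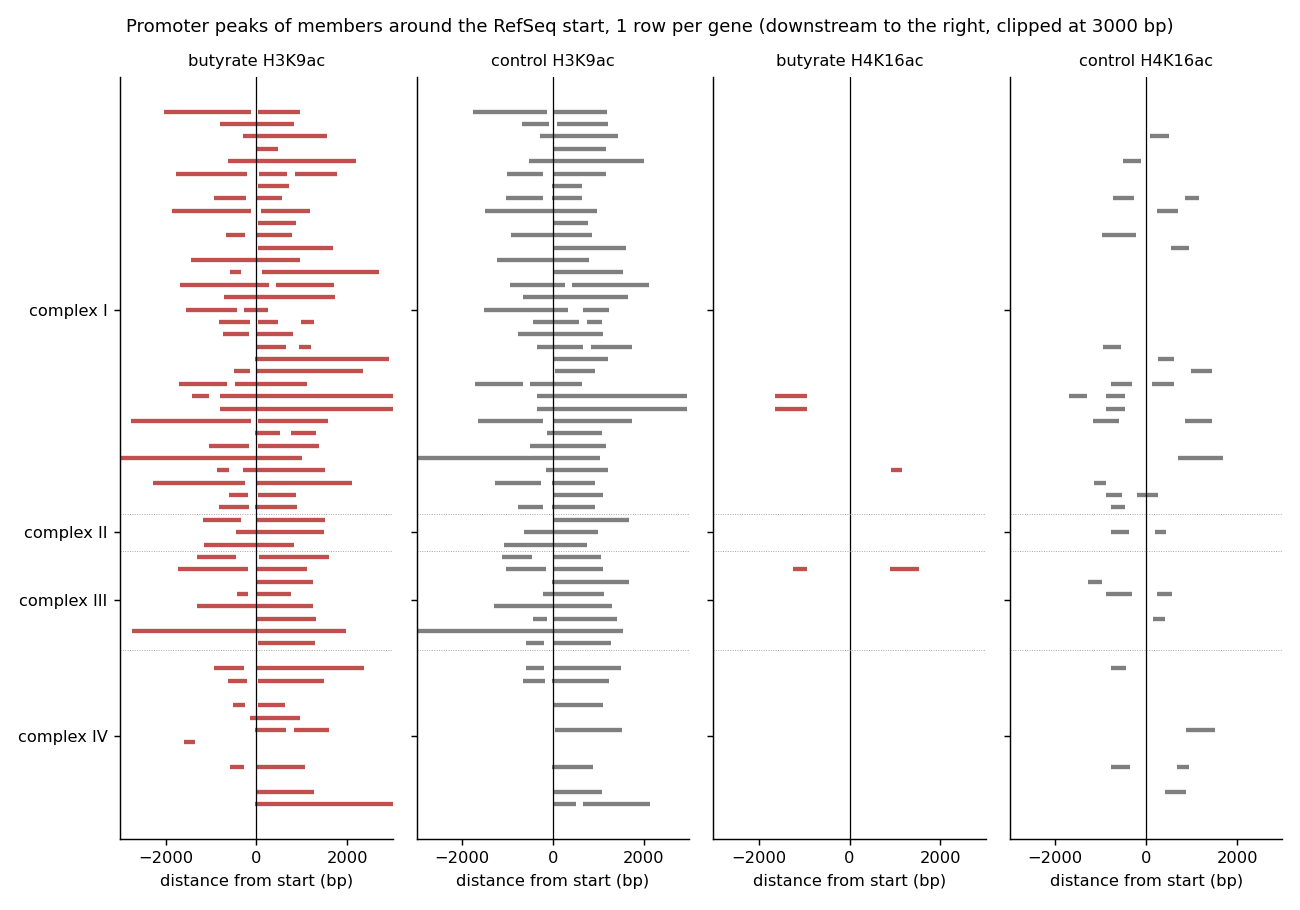
Promoter peaks of the 58 respiratory chain genes without a distant alternative start, drawn by distance from the RefSeq start (bp, horizontal axis, clipped at 3000 bp) with 1 line per gene, grouped by complex. H3K9ac peaks lie close around the start in both libraries, while H4K16ac peaks are short and scattered to either side in control and listed for few of these genes with butyrate.

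Summit coverage, the number of fragments over the strongest promoter summit per 10 M reads as recovered from the authors' fold and p, had a median of 9.54 with butyrate and 12.9 in control. A promoter peak had to reach within 1 kb of a start, but its summit could lie farther away or differ in site between libraries. The UQCRH summit lay over 1 kb upstream with butyrate and 184 bp downstream in control. At NDUFS3 the strongest butyrate and control peaks lay at different starts, 13738 bp apart. The median ratio over the 60 kept genes was 0.758. It was below 1 in 53 of 60 genes (88.3%), and over all kept genes the median ratio was 0.896 with 65.8% below 1. Set against that genome-wide median, 48 of the 60 lay below it and 11 above. The authors' fold, which divides by local background, had a median of 5.84 with butyrate and 7.36 in control at these genes, and over all kept genes of 6.17 with butyrate and 6.58 in control. Median local background at these promoter peaks was 1.17 fragments per 10 M reads with butyrate and 1.34 in control. The depths, list lengths and lowest p of the libraries differ as given above, and their part in this result was not tested.

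By complex the median coverage ratio was 0.790 in complex I, 0.662 in complex II, 0.833 in complex III and 0.717 in complex IV. The 4 subunits of succinate dehydrogenase all had lower summits and a larger summed peak width with butyrate. SDHA, the flavoprotein, had a coverage of 17.4 with butyrate and 26.7 in control. Its peak was 4094 bp wide with butyrate and 3423 bp in control. SDHB, the iron-sulfur subunit, had 7.49 with butyrate and 12.7 in control, and its peaks summed to 2357 bp with butyrate and 1684 bp in control. The butyrate sum came from 2 separate peaks, each narrower than the single control peak. The membrane anchor SDHC had 9.20 with butyrate and 11.5 in control, and a width of 1949 bp with butyrate and 1633 bp in control. The other anchor, SDHD, had 10.2 with butyrate and 15.2 in control, and a width of 1995 bp with butyrate and 1837 bp in control. SDHA was the highest of the 4 in both libraries, at a promoter where local background was also high, 2.73 with butyrate and 3.33 in control.

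The lowest coverage ratio was that of NDUFV2, an iron-sulfur core subunit of complex I, with 5.11 fragments per 10 M reads with butyrate and 14.4 in control. The NDUFV2 summits differed in site, at 787 bp downstream of the start with butyrate and 149 bp in control. The highest coverage ratio was that of NDUFS4, an accessory subunit, with 7.83 with butyrate and 4.93 in control. NDUFS4 was the weakest of the 60 in control (−log10 q 3.99) and reached 11.4 with butyrate. Only 7 genes had more coverage with butyrate, namely NDUFS4, NDUFB3, NDUFB2, NDUFA10, UQCR11, UQCRH and COX7A2. The strongest H3K9ac promoter peaks with butyrate were those of NDUFB2 (−log10 q 25.2), NDUFB3 (22.6) and NDUFS6 (22.2). The weakest kept ones were those of NDUFV2 (5.09), NDUFA3 (6.57) and COX6B1 (6.66). In control the strongest were those of NDUFS6 (37.0), NDUFB4 (32.6) and SDHA (30.8), and the weakest after NDUFS4 were those of NDUFA12 (7.35) and NDUFB9 (7.71). The NDUFS6 peak covered its start, but its summit lay over 1 kb upstream in both libraries. The neighbour MRPL36 starts on the opposite strand within 1 kb of NDUFS6. NDUFB4, an accessory subunit of the membrane arm, stood at 8.92 with butyrate. Within its own list, the set had a median −log10 q of 11.8 with butyrate, beside 12.6 over all marked genes, and of 17.7 in control, beside 13.6.

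**Figure D4:**
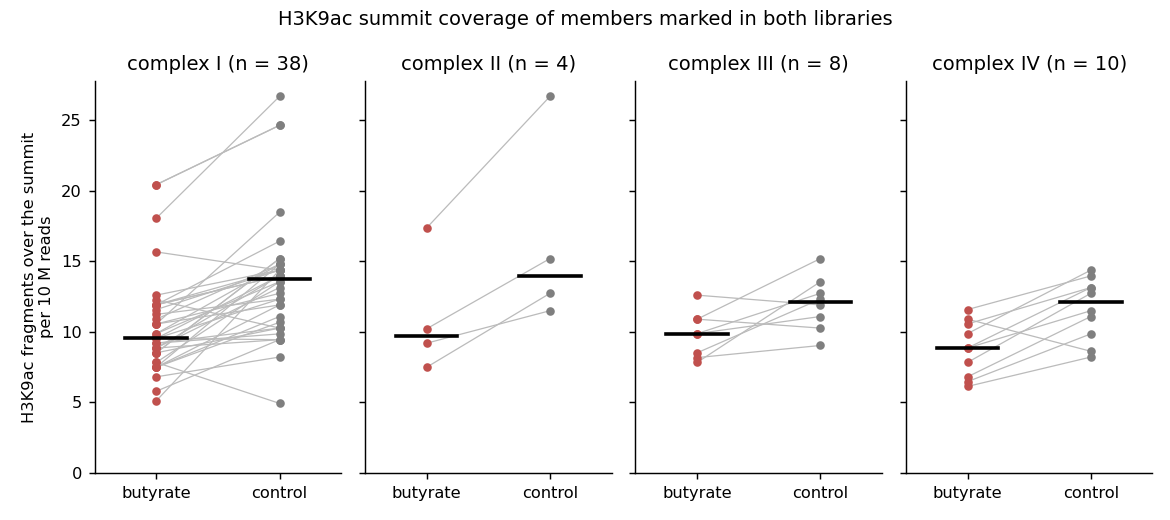
H3K9ac fragments over the strongest promoter summit per 10 M reads (vertical axis) for the 60 genes marked in both libraries, by complex. Each line joins the butyrate value (red) and the control value (grey) of 1 gene, and black bars are medians. Lines slope upward toward control in 53 of 60 genes.

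H4K16ac marked 6 of the 68 genes with butyrate (8.82%, 3.31 to 18.2) and 30 in control (44.1%, 32.1 to 56.7). Among all genes 4.62% were marked with butyrate and 18.8% in control. Of the 30 control-marked genes 27 lost the mark, which is 90.0%, and 89.0% of all control-marked genes lost it too, so the rate of loss was close to the background. As a share of all genes counted, 16.8% lost an H4K16ac promoter peak and 2.55% gained one, and 3.14% of the genes unmarked in control gained one. Complex I had 4 marked genes with butyrate and 18 in control, and complex II 0 with butyrate and 2 in control. Complex III had 2 with butyrate and 4 in control, and complex IV 0 with butyrate and 6 in control. With a q of at most 0.05, 0 of the 68 genes were marked with butyrate and 16 in control, beside 0.0458% of all genes with butyrate and 10.5% in control. Those 16 were 9 genes of complex I, 2 of complex II, 2 of complex III and 3 of complex IV. With equal numbers of top peaks in both lists, 17 genes were marked in control and 15 lost, and no gene was marked in either library once a −log10 q of 5 was required. Few peaks of the butyrate list reach a q of 0.05 anywhere, as given above, and the part of this in the losses was not tested.

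Among the control peaks lost in complex I, NDUFA6 had one at 42091032 to 42091494 on chromosome 22 (−log10 q 3.20) with its summit 261 bp upstream of the nearest start. NDUFA11 had one at 5903287 to 5903712 on chromosome 19 (2.43), 324 bp downstream. In complex II the lost peaks were those of SDHC at 161313599 to 161314014 on chromosome 1 (2.43) and of SDHA (1.42), the second at an internal start of the authors' annotation only. In complex III they were those of UQCRC1 at 48609082 to 48609411 on chromosome 3 (1.99), of UQCRFS1, the Rieske iron-sulfur protein (0.786), and of UQCRB (0.637). In complex IV the 3 strongest were COX4I1 (1.68), COX5A (1.61) and COX7A2 (1.42). None of these 10 genes had an H4K16ac promoter peak in the butyrate list, and all 10 kept H3K9ac.

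The 3 genes with H4K16ac in both lists were NDUFC2, NDUFC2-KCTD14 and UQCRHL. NDUFC2-KCTD14 is a readthrough gene that begins at the same RefSeq start as NDUFC2, so they share part of their promoter peaks, although both are counted among the 68 genes. Without it H4K16ac marked 5 genes with butyrate and 29 in control. The NDUFC2 peak had a −log10 q of 0.384 with butyrate and 1.31 in control and a coverage of 7.55 with butyrate and 11.5 in control. Its local background was also high, 2.81 with butyrate and 4.60 in control, beside medians over all marked genes of 0.988 with butyrate and 1.28 in control. At NDUFC2-KCTD14 and at UQCRHL the peaks of both libraries did not overlap. At NDUFC2 they did, with the strongest control peak within 1 kb of the authors' start only. The UQCRHL butyrate peak (15807716 to 15808076, −log10 q 0.384) lay near the RefSeq start and the control peak (15809298 to 15809666, 2.02) at the authors' start 1699 bp away. UQCRHL is a copy of UQCRH, so reads within its 276 bp could be placed on either, but no listed H3K9ac or H4K16ac peak lay there. The 3 gained genes were NDUFS3 and NDUFS7, core subunits of complex I, and UQCR11, a small subunit of complex III. Their peaks were weak, with −log10 q of 0.384, 0.207 and 0.384, at 844, 989 and 1087 bp from the nearest start.

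**Figure D5:**
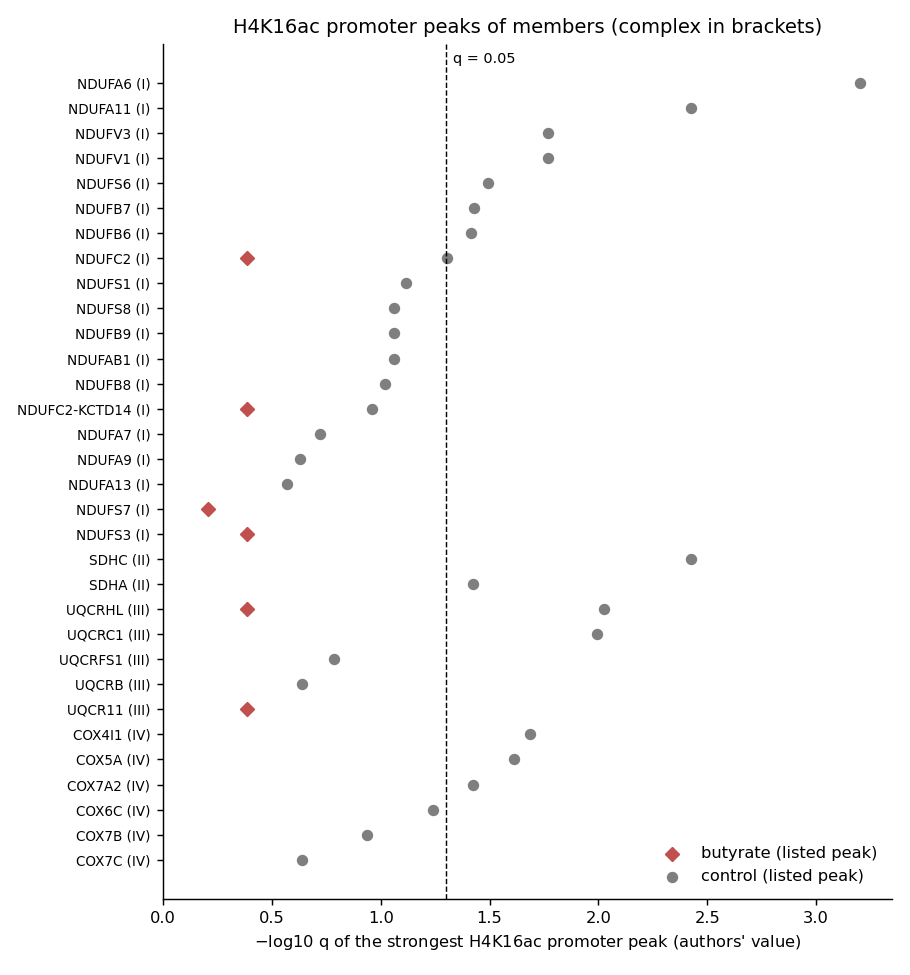
Authors' −log10 q of the strongest H4K16ac promoter peak (horizontal axis) for 32 respiratory chain genes with one in either library, complex in brackets, butyrate as red diamonds and control as grey circles. The 6 butyrate values lie between 0.207 and 0.384, left of the dashed line at q of 0.05, and the control values reach 3.20.

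In control the H4K16ac summits lay farther from the start than the H3K9ac summits. Only 12 of 30 were within 500 bp, with a median distance of 621.5 bp, 16 upstream and 14 downstream, whereas 53 of 60 H3K9ac summits were within 500 bp, with a median of 201 bp. With butyrate 6 of 6 H4K16ac genes also carried H3K9ac, and in control 29 of 30 did. Most of the set carried H3K9ac in any case, 92.6% of the 68 genes with butyrate and 88.2% in control. The strongest peaks of the 2 marks shared bases at 1 of 6 genes with butyrate and at 17 of 30 in control. A start of a neighbour on the opposite strand lay within 1 kb at 19 of the 68 genes (27.9%), against 14% of all genes, and there a peak cannot be assigned to either gene. NDUFA7 with RPS28, NDUFS6 with MRPL36 and NDUFB5 with MRPL47 are such pairs. Control H4K16ac was at 9 of these 19 genes and at 21 of the other 49.

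Peaks inside the genes followed opposite directions for the marks. The 68 genes held 37 H4K16ac peaks with butyrate and 138 in control, with 35 genes having fewer (51.5%), 8 more (11.8%) and 25 equal numbers with butyrate. Of all genes 38.2% had fewer and 10.8% more. At least 1 H4K16ac peak lay in 18 of them with butyrate (26.5%) and in 38 in control (55.9%), where the shares of all genes were 34.3% with butyrate and 46.5% in control. The median length was 10751 bp for these genes and 24267 bp for all genes, and length was not matched in this comparison. The readthrough gene NDUFC2-KCTD14, 64148 bp long, alone held 15 of the H4K16ac peaks with butyrate and 21 in control. Peaks in NDUFC2, which lies within it, are counted for both genes. SDHC held 2 with butyrate and 16 in control, and SDHA held 1 with butyrate and 10 in control. In complex I, NDUFA10, an accessory subunit, held 5 with butyrate and 17 in control, and NDUFS1, the largest core subunit, 0 with butyrate and 6 in control. Complex II as a whole held 3 with butyrate and 32 in control in 4 genes. H3K9ac peaks in the same 68 genes numbered 171 with butyrate and 88 in control, of which NDUFC2-KCTD14 held 13 with butyrate and 3 in control. SDHA held 8 with butyrate and 1 in control, and NDUFA10 held 9 with butyrate and 2 in control. Of the 68 genes, 32 held more H3K9ac peaks with butyrate (47.1%) and 7 held fewer (10.3%), beside 49.4% and 4.31% of all genes, so the share with more was near that of all genes.

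Other nuclear genes for mitochondrial proteins showed the following counts. Among all genes marked in control 89.0% lost H4K16ac, and 4.62% of all genes carried it with butyrate. Loss at most or all marked genes of a list is therefore near the share of all genes. H3K9ac marked 48 of 48 assembly factors in both libraries, and 18 of 19 genes of ATP synthase and cytochrome c in both. H4K16ac marked 2 assembly factors with butyrate and 18 in control, with all 18 lost and ACAD9 and UQCC3 gained. It marked 1 of the 19 ATP synthase and cytochrome c genes with butyrate and 8 in control, with all 8 lost and ATP5MC2 gained. Of 77 genes for mitochondrial ribosomal proteins, H3K9ac marked 76 with butyrate and 75 in control, and H4K16ac marked 7 with butyrate and 39 in control, with 33 lost (84.6%). Among 14 regulators of these genes, H3K9ac was gained at PPARGC1A, the coactivator PGC-1 alpha, where a peak set of 1838 bp (−log10 q 8.91) was listed with butyrate and none in control. The other 13 regulators kept H3K9ac. H4K16ac was lost at 4 regulators, where the control −log10 q was 3.53 at SP1, 2.54 at NRF1, 1.29 at ESRRA, an orphan nuclear receptor, and 1.26 at TFAM, the mitochondrial DNA packaging and transcription factor. None of the 14 had H4K16ac with butyrate.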

How the data were processed

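Peak lists of 6 of the 8 samples were used, H3K9ac, H4K16ac and IgG, each with and without butyrate, 1 library per condition and antibody. Input chromatin (2 samples) was not analysed here. CASAVA 1.7, MACS2 2.1.0 and the build hg19 (GRCh37) are named in the submitters' processing notes. Neither the aligner nor the duplicate filter is given in the sources used here. PeakFoldEnrichment is the deposited fold, a ratio that the authors took between the pileup at the summit and the local background. The deposited p and q are −log10 values, per the file headers. The deposited score column was not used for results.

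Authors' gene starts lay a median of 66 bp from RefSeq GRCh38.p14 starts over 13607 genes, and 98.6% lay within 100 kb, so positions are read as GRCh38 although the notes name hg19. Starts had 1 added, being counted from 0. Peaks sharing bases were merged on chromosomes 1 to 22 and X. Of 19970 protein-coding genes 18457 had a strand, 1191 had none and no peak near either end and count as unmarked, and 322 were left out. Summit pileup, background and depth were solved from fold and the Poisson p with an effective genome of 2.7 Gb. All rows of the 4 histone lists were matched, with pileups of the butyrate H4K16ac list scaled by 0.897. Assignment of peaks to genes was tested on simulated data. Intervals are Clopper-Pearson at 95% and cover counting error only. Python packages were numpy 2.4.6, pandas 2.3.3 and scipy 1.17.1.

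The genes, lists and rules were chosen with earlier results of these data known. Named genes are all SDH genes, every gene unmarked or changed for H3K9ac, every gene with gained or kept H4K16ac, the strongest lost H4K16ac per complex, the extremes of H3K9ac −log10 q and width ratio, and both genes of each isoform pair. Extremes of summit coverage, counts within genes, motif positions and divergent pairs were chosen after their values were seen. The lists of assembly factors, ATP synthase with cytochrome c, regulators, mitochondrial ribosomal proteins and cell markers are described by counts. One gene that the naming rule takes is not reported here. Alternatives varied the window, start, strength limit, list length, overlap and merging.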

Additional observations from a re-analysis of the deposited data

How the results depend on the processing

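Each count and ratio was recomputed under 14 alternatives, which gave 216 values, of which 165 stayed within 1.5 times of the reported value and 51 moved further. No paired analysis was possible because each group holds 1 library, so replicates could not be left out either. The direction of the H4K16ac difference was the same wherever peaks were left. With a q of at most 0.05, H4K16ac marked 0 genes with butyrate and 16 in control, with 16 lost (9 in complex I, 3 in complex IV) and 0 gained. With a −log10 q of at least 5, or a fold of at least 5, it marked 0 genes with butyrate and 0 in control, so 0 were lost or gained in any complex. With equal numbers of top peaks it marked 17 genes in control, with 15 lost (8 in complex I, 1 in complex III). A window of 2.5 kb gave 15 H4K16ac genes with butyrate, 6 gained and 5 lost in complex III, and a window of 500 bp gave 1 with butyrate and 0 gained. The authors' start alone gave 3 H4K16ac genes with butyrate and 1 gained, and the RefSeq start alone 1 lost in complex II. Where kept genes needed overlapping peaks, by 1 bp or by a larger part of the shorter, 5 were gained.

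The gained H3K9ac genes depended on the limits. A window of 500 bp gave 1 (0 in complex III, 1 in complex IV), a −log10 q of at least 5 gave 1 (0 in complexes III and IV), and equal numbers of top peaks gave 0 in each complex. The RefSeq start alone gave 1 in complex IV, and the authors' start alone or a fold of at least 5 gave 0 in complex III. Genes gained with a −log10 q or a fold of at least 5 had kept H3K9ac in the main count. Lost H3K9ac genes numbered 1 with the authors' start alone, 8 with a fold of at least 5 and 1 with equal numbers of top peaks. Counts of H3K9ac genes stayed within 1.5 times, but their order turned, with a fold of at least 5 to 50 with butyrate and 55 in control, and with equal numbers of top peaks to 59 with butyrate and 60 in control. The width ratio and the coverage ratio stayed within 1.5 times. Merging across gaps of 200 bp, counting every RefSeq start, leaving out NDUFC2-KCTD14 and adding the 2 genes formerly named NDUFA4 and NDUFA4L2 moved none of the values that far, and the last 3 of these were chosen after seeing the data. The cause of these shifts was not tested.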
